A study of Mus musculus with 51 samples.

Results

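The step examined here is the passage of mouse embryos made by in vitro fertilisation (IVF) from the 1-cell to the 2-cell stage. The 6 arrays of these embryos, 3 at the 2-cell stage and 3 at the 1-cell stage, were chosen by their labels from 51 arrays of oocytes and preimplantation embryos. Each array was hybridised with RNA amplified from 1 single embryo. The 2-cell embryos were collected 32 h and the 1-cell embryos 16 h after sperm was added, and both came from B6D2F1 eggs and B6D2F1 sperm and were cultured in KSOM medium under low oxygen. Around them stand 3 IVF embryos at the 4-cell stage (48 h) and 3 metaphase II (MII) oocytes, which had not been fertilised. A second series holds clones, made by placing the nucleus of a B6CBF1 Sertoli cell, a somatic cell of the testis, in a B6D2F1 oocyte, with 5 embryos at the 2-cell stage and 5 at the 1-cell stage, at the same hours after activation. The genes are the 18193 that had a probe set with exactly 1 gene symbol, each represented by the probe set that varied most over the 51 arrays.

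A fertilised mouse egg starts on RNA and protein stored by the oocyte. Meiotic maturation and fertilisation set off the clearance of that store, and transcription from the embryo's own genome begins weakly in the late 1-cell embryo and in a major wave during the 2-cell stage. The step is therefore known both for the loss of oocyte transcripts and for the first large set of embryonic ones.

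The deposited values are log2 values centred for each probe set, so a value is a difference from that probe set's own baseline. In nearly all probe sets with exactly 1 array at 0, 24 to 26 of the 51 arrays lay below it. The baseline is therefore about the median over all stages, clones included. The values rank arrays for 1 gene and say nothing about levels between genes. The arrays were scaled together, so a change in the amount of RNA per embryo or per cell is not seen. The embryos are labelled as biological replicates, and 3 of them a stage limit the precision. Within a stage, the lowest correlation between arrays was 0.781 at the 2-cell and 0.952 at the 1-cell stage. The centred values had an SD over genes of 1.35 to 1.5 in the 2-cell embryos and 2.34 to 2.37 in the 1-cell embryos. The bacterial hybridisation controls averaged -0.734 to -0.227 in the 2-cell and 0.530 to 0.790 in the 1-cell IVF embryos, so they move with the stage and their part in the results was not tested. In clones they lay the other way round, at 0.573 to 1.22 in 2-cell and -1.02 to 0.496 in 1-cell embryos. The 1-cell clones were split, with embryos 1 to 3 at -0.807, -0.708 and -1.02 and embryos 4 and 5 at 0.346 and 0.496.

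Of the 18193 genes, 3121 (17.2%) were higher and 3411 (18.7%) lower in 2-cell than in 1-cell embryos at an adjusted p below 0.05 (limma fit of the 21 oocyte and IVF arrays, Benjamini-Hochberg over all genes), 6532 (35.9%) in all. The median difference over all genes was -0.01 on the log2 scale. Large rises were more numerous than large falls. A rise of at least 16-fold was seen in 985 called genes and a fall of that size in 575, and at a log2 difference of at least 8 the counts were 83 rises and 1 fall. With the hybridisation controls as a covariate the counts were 1522 higher and 1273 lower, of which 1501 and 1247 were among the genes called without it. The controls did not overlap between the 1-cell and 2-cell arrays, so the covariate can lose calls by wider errors as well as by smaller differences. Pou5f1 went from -1.35 ± 0.31 to -1.31 ± 0.67 with it, and Btg4 from -2.85 ± 0.39 to -0.89 ± 0.62. After a further quantile normalization, which gives every array the same distribution of values, 2121 genes were higher and 2238 lower.

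**Figure D1:**
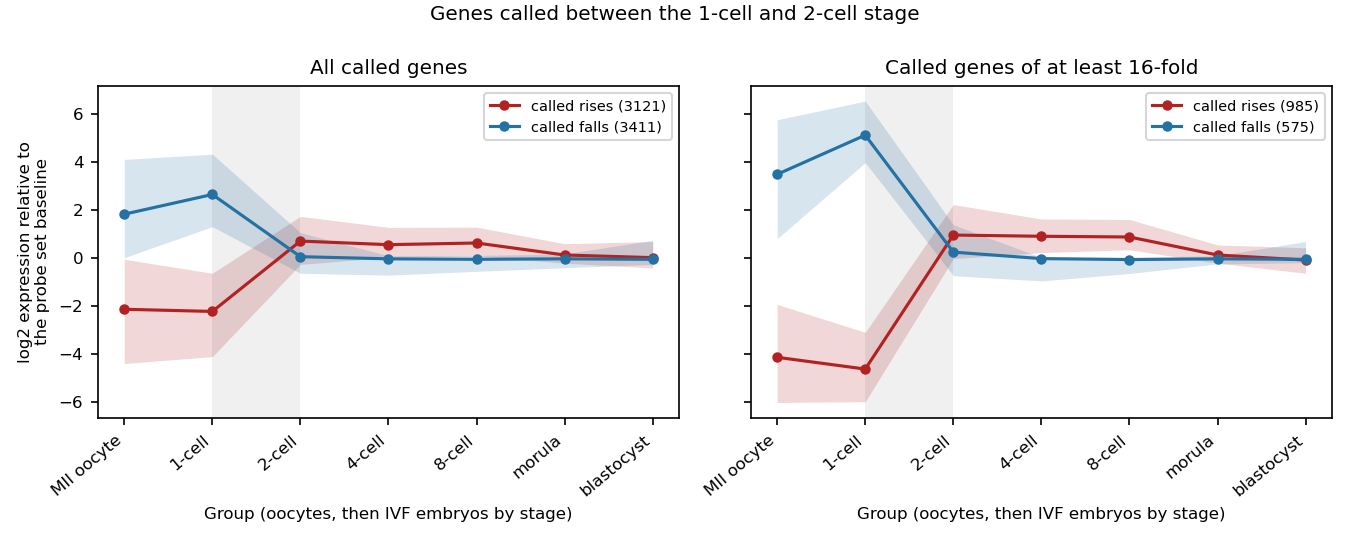
Median (points) and quartiles (bands) over genes of the group mean, in log2 units relative to each probe set's baseline, from MII oocytes to IVF blastocysts, for genes called higher or lower between the shaded stages. The groups of genes were chosen by the 1-cell to 2-cell difference, so their separation there is fixed by the choice; outside it, the rises had a median of -2.13 in MII oocytes and 0.56 at the 4-cell stage, and the falls 1.83 and -0.03.

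The genes that rose were mostly below, and those that fell mostly above, their baseline in the oocyte already. Genes that rose had a median of -2.13 in MII oocytes, -2.22 at the 1-cell, 0.71 at the 2-cell and 0.56 at the 4-cell stage. Genes that fell had medians of 1.83, 2.65, 0.06 and -0.03 at the same points. The difference of 4-cell embryos and MII oocytes, whose arrays took no part in the 1-cell to 2-cell difference itself, called 2239 (71.7%) of the 3121 rises in the same direction and 255 (8.17%) in the opposite one, where 20.4% of all genes were called higher and 43.9% either way. Of the 3411 falls, 2113 (61.9%) were called lower in 4-cell embryos than in MII oocytes and 347 (10.2%) higher, against 23.4% of all genes called lower.

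The promoter windows of the genes with the largest rises are shown first. They are placed by annotated starts, and starts of transcription were not measured here. Each is the stretch from 250 bases before to 50 after the RefSeq start of the gene in build GRCm38.p6, written 5′ to 3′ on the gene's strand. Capitals mark matches, on either strand, to the CCAAT box (CCAAT), the GC box (GGGCGG), the E-box (CACGTG) and the heat shock element (GAANNTTC); no match to the other motifs searched was found in these windows. Selenos is read from chr7:66079399-66079698 on the plus strand, Pdxk from chr10:78464899-78465198 on the minus strand, Zfp622 from chr15:25984116-25984415 on the plus strand and Timd2 from chr11:46707055-46707354 on the minus strand, the last being 1 of 2 windows listed for that gene.
Selenos: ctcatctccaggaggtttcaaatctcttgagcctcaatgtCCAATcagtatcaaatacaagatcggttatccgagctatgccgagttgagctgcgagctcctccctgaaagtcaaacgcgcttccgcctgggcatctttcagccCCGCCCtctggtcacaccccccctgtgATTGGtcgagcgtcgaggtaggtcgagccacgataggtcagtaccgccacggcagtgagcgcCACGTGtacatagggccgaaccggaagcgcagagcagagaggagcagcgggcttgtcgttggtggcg
Pdxk: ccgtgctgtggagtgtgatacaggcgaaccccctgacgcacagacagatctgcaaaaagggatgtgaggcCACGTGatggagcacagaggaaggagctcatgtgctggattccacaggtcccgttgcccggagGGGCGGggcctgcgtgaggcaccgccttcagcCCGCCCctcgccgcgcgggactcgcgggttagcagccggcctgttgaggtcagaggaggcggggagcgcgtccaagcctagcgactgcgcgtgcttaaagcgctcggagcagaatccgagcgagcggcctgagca
Zfp622: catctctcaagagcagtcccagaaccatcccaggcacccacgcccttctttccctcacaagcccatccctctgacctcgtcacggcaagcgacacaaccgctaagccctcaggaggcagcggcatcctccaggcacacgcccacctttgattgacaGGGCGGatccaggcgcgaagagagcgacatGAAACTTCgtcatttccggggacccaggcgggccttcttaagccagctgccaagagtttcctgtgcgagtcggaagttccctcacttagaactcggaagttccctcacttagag
Timd2: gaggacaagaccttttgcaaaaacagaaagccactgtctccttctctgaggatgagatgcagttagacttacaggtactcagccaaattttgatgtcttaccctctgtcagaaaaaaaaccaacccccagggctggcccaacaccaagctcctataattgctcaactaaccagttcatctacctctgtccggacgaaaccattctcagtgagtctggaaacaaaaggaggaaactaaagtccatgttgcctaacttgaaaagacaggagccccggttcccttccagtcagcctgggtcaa
The first 3 are rich in CpG, with an observed over expected ratio of 0.90 for Selenos, 0.87 for Pdxk and 0.69 for Zfp622, while the Timd2 window has 0.19 and holds none of the motifs.

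Selenos, which encodes a selenoprotein of the endoplasmic reticulum membrane that takes part in the disposal of misfolded proteins, had the largest rise. It stood at 2.00, 2.00 and 1.81 in the 2-cell embryos, against -10.36, -10.04 and -10.04 in the 1-cell embryos. All 2-cell values lay far above all 1-cell values, and the 1-cell values were at the level of the MII oocytes (-10.03, -10.35 and -10.35). The difference was 12.08 ± 0.21 (SE, adjusted p = 1.52e-15, limma). Pdxk, the kinase that makes the active form of vitamin B6, had 0.94, 0.56 and 1.63 in 2-cell embryos and -11.35, -11.34 and -9.97 in 1-cell embryos, a difference of 11.92 ± 0.36 (adjusted p = 9.48e-13). Its 3 oocytes were all at -11.33, and the third 1-cell embryo was the only one above them by more than 1 unit. Zfp622 encodes a zinc finger protein whose yeast counterpart works in maturation of the large ribosomal subunit. It had 1.19, 1.05 and 1.27 in 2-cell embryos, against -10.54, -10.69 and -7.54 in 1-cell embryos. The third 1-cell embryo was again the highest of its group, and the groups were still more than 8 units apart. The rise was 10.76 ± 0.54 (adjusted p = 2.83e-10). Timd2, a cell surface receptor of the TIM family, had 0.14, 0.37 and -0.16 in 2-cell and -10.72, -10.71 and -9.98 in 1-cell embryos, and rose by 10.58 ± 0.18 (limma adjusted p = 1.52e-15). Several low values of these genes nearly repeated between separate embryos or oocytes, as in the oocytes of Pdxk. Whether they lay at the background of the arrays was not tested. The sizes and errors of these rises carry that limit.

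The other 8 of the 12 largest rises lay between 9.81 and 10.50. The lysosomal proteases Ctsc and Ctsl rose by 10.50 ± 0.51 and 10.02 ± 0.40, but the second probe set of each gene showed differences of -0.01 and 0.06. Prps1, an X-linked enzyme that makes the precursor of nucleotide synthesis, rose by 10.40 ± 0.39. Crxos, a homeobox gene, had -1.90, -0.61 and -0.21 in 2-cell embryos, against -11.16, -11.14 and -11.02 in 1-cell embryos, a rise of 10.20 ± 0.31. The 4-cell embryos stood at 0.43, 0.07 and -0.22. The interferon-induced Ifi35, with 6.54 at its second probe set, the potassium channel subunit Kcnk6 and the Golgi glycosyltransferase Mgat2 rose by 10.07 ± 0.26, 10.01 ± 0.32 and 9.88 ± 0.33. Exoc3l2, related to an exocyst subunit, had 9.71, 9.13 and 8.98 in 2-cell embryos, against -0.57, -0.47 and -0.57 in 1-cell embryos (9.81 ± 0.35), but its second probe set gave -0.00. In all 12 genes the 2-cell and 1-cell values did not overlap, which the rule for naming genes required. Such separation held for 18.5% of all genes on the higher side and 28.3% on the lower side.

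**Figure D2:**
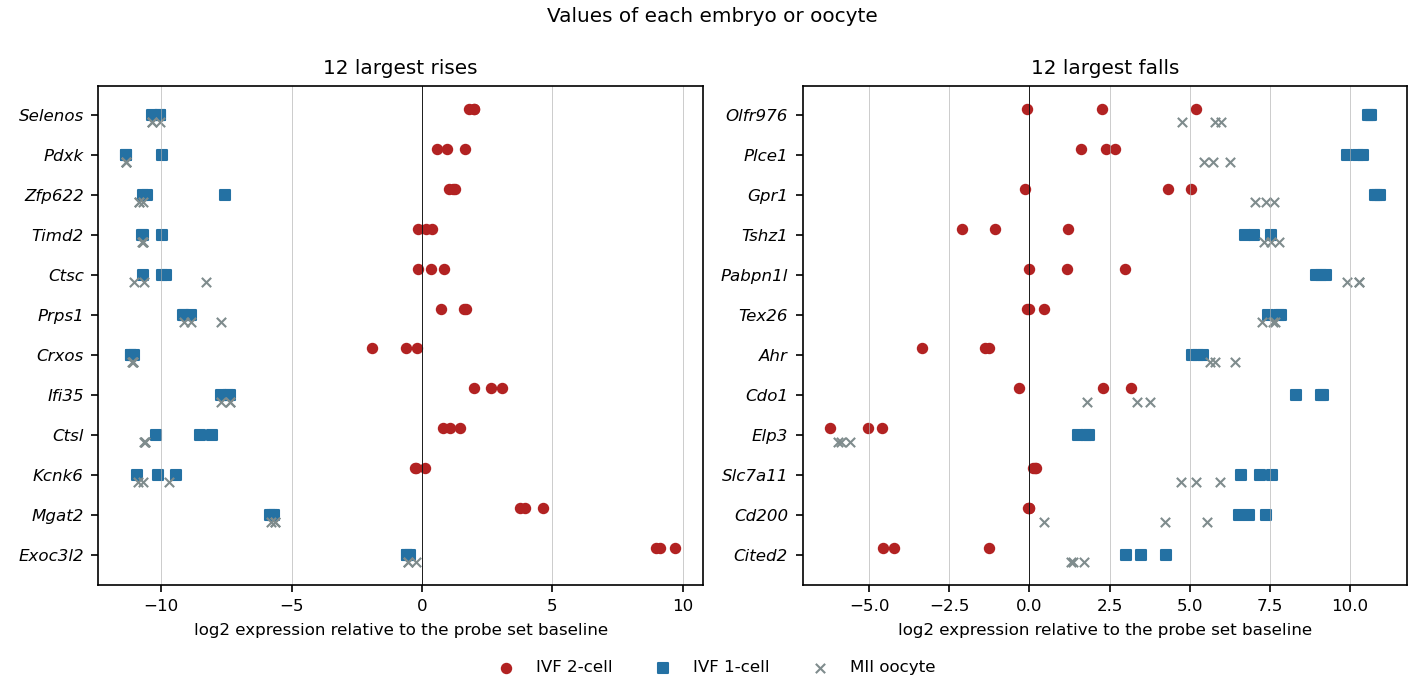
Values of each IVF 2-cell embryo (circles), IVF 1-cell embryo (squares) and MII oocyte (crosses), in log2 units relative to the probe set's baseline, for the 12 largest rises and the 12 largest falls. The 1-cell embryos lie beside the oocytes in most of the rises, whereas for the falls Olfr976, Plce1, Gpr1, Cdo1, Elp3, Slc7a11, Cd200 and Cited2 all 1-cell values lie above those of the oocytes.

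Most genes listed as switched on at the 2-cell stage rose. This list and those below were chosen with earlier results of these data known, so their counts are descriptions. They stand beside the shares over all genes, 17.2% higher and 18.7% lower. Of 33 measured, 23 rose and 4 fell, with a median of 4.62 against -0.01 over all genes, and the counts were 19 and 2 with the hybridisation controls as a covariate. These medians depend on the choice of the most variable probe set per gene. With the second probe set of each gene, where it has one, 19 rose, 5 fell and the median was 1.91, and with the mean of all probe sets it was 2.87. The homeobox gene Obox6 had 1.33, 2.43 and 2.14 in 2-cell embryos and -7.28, -7.40 and -6.99 in 1-cell embryos, a rise of 9.19 ± 0.27 (adjusted p = 8.61e-13). Its relatives did not share one direction. Obox3 rose by 5.33 ± 0.69, while Obox2 and Obox5 changed by -3.98 ± 0.39 and -3.45 ± 0.32. Pramel6 and Pramel7, leucine-rich repeat genes of the early embryo, rose by 9.77 ± 0.35 and 7.92 ± 0.37, the second with 3.38 at its other probe set. Most of their family went the other way, with 3 of 11 Pramel genes up, 7 down and a median of -1.47, and with 3 up and none down after a further quantile normalization. Kdm5b, a demethylase of histone H3 lysine 4, had 1.85, 1.90 and 2.02 in 2-cell embryos, against -5.96, -7.37 and -5.42 in 1-cell embryos, and rose by 8.18 ± 0.53 (adjusted p = 4.69e-09). The nuclear receptor Nr5a2 rose by 4.62 ± 0.38 and the transcription factor Klf5 by 5.66 ± 0.42, with 1.18 and 1.63 at their second probe sets, of which that of Klf5 was not called, and Dppa4, a chromatin factor of pluripotent cells, by 5.85 ± 0.19.

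For Usp17la all 3, and for Zfp352 2 of the 3, 1-cell embryos stood above the oocytes already. Usp17la, a ubiquitin peptidase gene of the 2-cell set, had 7.40, 7.13 and 8.07 in 2-cell embryos and 7.56, 6.26 and 8.07 in 1-cell embryos, while the 3 oocytes were all at -0.44. The 2-cell and 1-cell values overlapped, with a difference of 0.23 ± 1.18 (adjusted p = 0.999). Zfp352, a zinc finger gene transcribed at the 2-cell stage, had 9.81, 8.94 and 7.77 in 2-cell embryos, against 3.25, -0.13 and 4.57 in 1-cell embryos. The 1-cell embryo 2 was at the level of the oocytes (-0.12, -0.13 and -0.12), the other two were not, and the rise was 6.28 ± 1.18 (adjusted p = 0.000428). Tcstv1, of the 2-cell expressed Tcstv family, stood at 5.64, 4.85 and 5.57 in oocytes, above its 1-cell values of 4.71, 3.76 and 4.48, and differed by 1.40 ± 0.56 between the 2-cell and 1-cell stages (adjusted p = 0.0634). Because oocytes and 1-cell embryos are set side by side here, the 1-cell values are given as they are, with no test of their own.

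The machinery for making ribosomes rose broadly. Of 55 nucleolar factors of ribosome biogenesis, 42 (76.4%) rose and 2 (3.64%) fell, against 17.2% and 18.7% of all genes. Their median was 2.79. Nop2, a methyltransferase of ribosomal RNA, had 2.14, 2.71 and 2.83 in 2-cell embryos, against -4.48, -5.11 and -5.31 in 1-cell embryos, and rose by 7.53 ± 0.27 (adjusted p = 7.74e-12). Rrp9 and Rrp12, processing factors of the small subunit, rose by 6.27 ± 0.33 and 5.85 ± 0.32, nucleolin (Ncl) by 5.63 ± 0.32, with 1.01 and no call at its second probe set, and fibrillarin (Fbl) by 4.78 ± 0.46. The 2 exceptions were Brix1, a large-subunit assembly factor, at -3.79 ± 0.36 and nucleophosmin (Npm1) at -0.56 ± 0.21, neither of them called at its second probe set (-0.11 and -0.10). Of the 77 cytosolic ribosomal protein genes listed, 42 had a probe set of their own, and 37 of these rose and 1, Rpl22, fell by 2.15 on the log2 scale, while its second probe set was called higher (5.00). Their median was 3.48. Rps19, of the small subunit, had -0.98, -0.54 and -0.41 in 2-cell embryos and -7.77, -8.17 and -7.59 in 1-cell embryos. Its difference was 7.20 ± 0.19 (adjusted p = 2.43e-13), and Rpl8, of the large subunit, rose by 6.12 ± 0.17. Rpsa rose by 6.85 ± 0.14, but its second probe set gave -0.04. Ribosomal protein genes have many processed copies in the genome, and probe sets shared with copies cannot be told apart. With the hybridisation controls as a covariate 28 nucleolar factors rose and 2 fell, and after a further quantile normalization the nucleolar median was 1.65 and that of the ribosomal proteins 1.52. With the second probe sets these medians were 1.63 and 3.62.

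Transcription genes followed with smaller shifts. Of 43 RNA polymerase subunits and general transcription factors, 27 rose and 4 fell, with a median of 1.19. Polr1c, a subunit shared by RNA polymerases I and III, had 0.71, 1.38 and 1.38 in 2-cell embryos, against -5.07, -5.23 and -6.24 in 1-cell embryos, a rise of 6.67 ± 0.28 (adjusted p = 3.28e-11). Ccnt1 and Cdk9, the cyclin and kinase of the elongation factor P-TEFb, rose by 6.61 ± 0.45 and 5.73 ± 0.43, with 1.31 and 3.58 at their second probe sets. The RNA polymerase II subunit Polr2h rose by 6.28 ± 0.34, while Gtf2b changed by -3.21 ± 0.23 and Polr2g by -2.15 ± 0.38. With the hybridisation controls as a covariate 14 of the 43 rose and 2 fell, and with each gene's second probe set 18 rose, 3 fell and the median was 0.44. Splicing factors were more divided, with 19 of 45 (42.2%) up, 10 (22.2%) down and a median of 0.50. Over all genes 17.2% rose and 18.7% fell. Snrpb, a core protein of the small nuclear ribonucleoproteins, and Srsf6 rose by 5.75 ± 0.19 and 5.99 ± 0.33, and Prpf6, a protein of the spliceosome, changed by -3.79 ± 0.24. With the covariate 9 splicing factors rose and 7 fell.

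Translation factors and chaperones rose more often than they fell. The falls, 18.9% of translation factors and 15.4% of chaperone genes, were near the 18.7% of all genes, while 17.2% of all genes rose. Of 37 translation factors 25 rose and 7 fell, with a median of 1.49, or 18, 4 and 0.36 with the second probe sets and a median of 0.78 with the mean of all. The poly(A)-binding protein Pabpc1 had -0.52, -0.66 and -0.04 in 2-cell and -7.06, -9.22 and -6.75 in 1-cell embryos, a difference of 7.27 ± 0.43 (adjusted p = 1.84e-09), with 0.86 at its second probe set. The cap-binding protein Eif4e changed by -3.97 ± 0.37, but its second probe set was called higher (1.12). Among 26 heat shock and chaperonin genes 18 rose and 4 fell, with a median of 1.10, and the largest rise was that of the chaperonin subunit Cct6a, 8.63 ± 0.40. With the hybridisation controls as a covariate these lists had 9 up and 7 down, and 4 up and 3 down. Proteasome subunits had 16 of 32 (50%) up and 8 (25%) down with a median of 1.04. Genes of the mitochondrial respiratory chain had 29 of 60 (48.3%) up and 11 (18.3%) down with a median of 1.07. Both directions turned under a further quantile normalization, to 6 up, 13 down and a median of -0.26 for the proteasome and to 11 up, 22 down and a median of -0.27 for the respiratory chain. With the second probe sets the proteasome median was 0.06. Single members of these lists were far apart, with Psmd13, a proteasome lid subunit, at 5.63 ± 0.20 and the core subunit Psma7 at -3.4 ± 0.37, and with Uqcrc1 of complex III at 5.91 ± 0.26 and Sdhd of complex II at -4.32 ± 0.34, with -0.62 and no call at its second probe set.

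**Figure D3:**
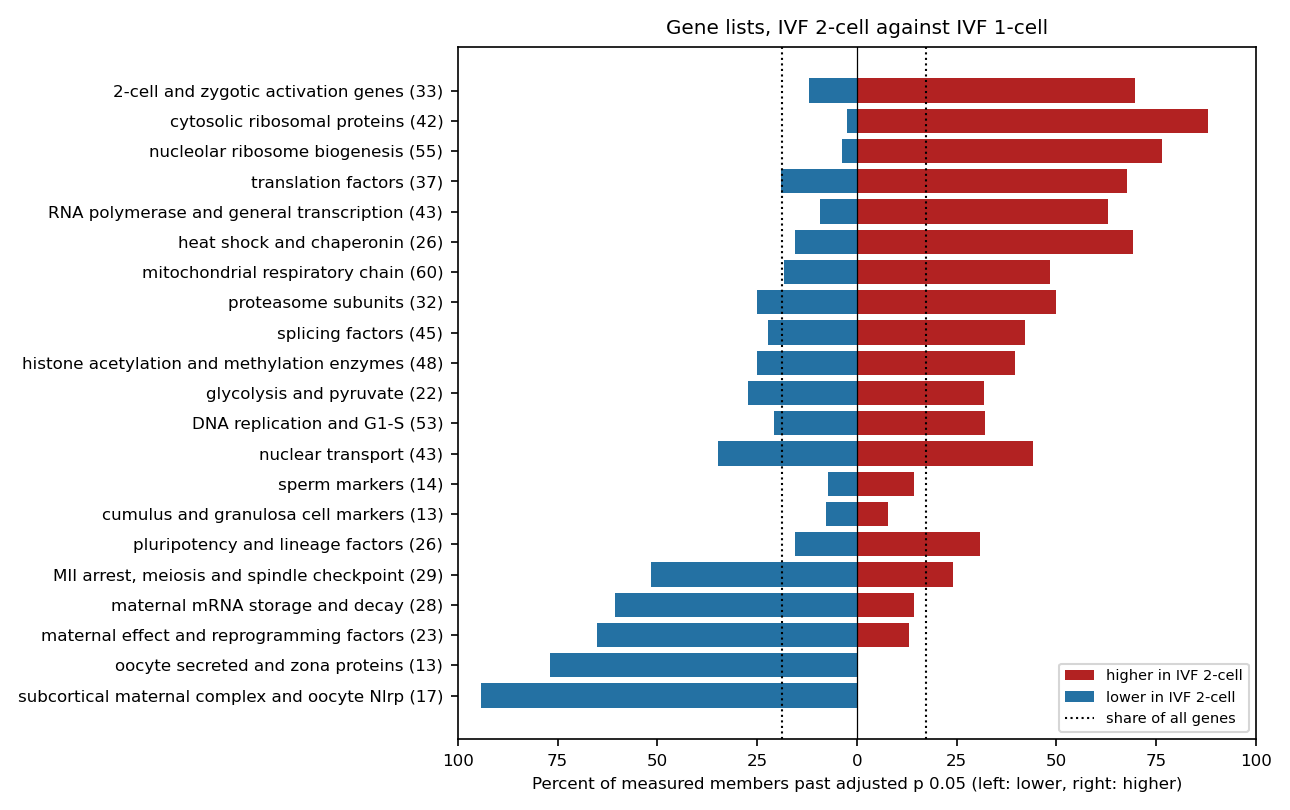
Percent of the measured members of each gene list that were higher (right) or lower (left) in IVF 2-cell than in IVF 1-cell embryos at an adjusted p below 0.05, ordered by median difference, with the number measured in parentheses. Dotted lines mark the shares over all genes, 17.2% higher and 18.7% lower; ribosome and zygotic activation lists extend to the right and oocyte lists to the left, while proteasome and respiratory chain turn to the left after a further quantile normalization.

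The falls took in most members of the oocyte lists, where 18.7% of all genes fell. Of 17 genes of the subcortical maternal complex and the oocyte Nlrp family, which build a protein store under the egg's surface, 16 fell and none rose, with a median of -3.31. Ooep had 0.33, 0.72 and -1.94 in 2-cell embryos and 6.35, 6.02 and 5.72 in 1-cell embryos, a difference of -6.33 ± 0.56 (adjusted p = 1.82e-07). Padi6 and Nlrp4b changed by -3.64 ± 0.35 and -5.51 ± 0.56. Nlrp5 (also called Mater) had 3.23, 2.55 and 2.40 in 2-cell embryos, against 6.28, 5.75 and 4.97 in 1-cell embryos, at -2.94 ± 0.43 (adjusted p = 3.67e-05), which was not called with the covariate (-2.39, adjusted p = 0.109) or after a further quantile normalization (-1.03, adjusted p = 0.105). Members of the Nlrp4 and Nlrp9 groups are close in sequence, and probe sets may not separate them. Of 13 secreted oocyte factors and zona proteins, 10 fell and none rose, with a median of -2.26. The growth factors Bmp15 and Gdf9 changed by -4.29 ± 0.54 and -1.96 ± 0.54, while the zona protein Zp3 had 2.76, 1.24 and 1.68 in 2-cell embryos and 1.85, 1.91 and 2.08 in 1-cell embryos, which overlap (-0.06 ± 0.49, adjusted p = 1). With the hybridisation controls as a covariate, 6 of the 17 and 2 of the 13 were called lower, and after a further quantile normalization 5 and 2; Bmp15 and Gdf9 were called under neither setting. Gdf9 was also not called without 2-cell embryo 3 (-1.58, adjusted p = 0.053).

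Factors that act in the egg on RNA and chromatin fell with exceptions, where 18.7% of all genes fell and 17.2% rose. Of 28 genes of maternal mRNA storage and decay 17 fell and 4 rose (median -1.63), or 5 and 1 with the hybridisation controls as a covariate and 14 and 3 (median -0.93) with the second probe sets. Dcp1a and Dcp2, subunits of the enzyme that removes the mRNA cap, stood at 1.49, -0.01 and -0.01 and at -0.02, -0.40 and -0.33 in 2-cell embryos. In 1-cell embryos they stood at 7.32, 7.45 and 7.35 and at 5.34, 5.24 and 4.98. Both had MII values below their 1-cell values, with Dcp2 at -1.85, -1.85 and -1.75. The differences were -6.89 ± 0.27 and -5.44 ± 0.27 (adjusted p = 1.79e-11 and 2.01e-10). The second probe set of Dcp2 gave -0.85 and was not called (adjusted p = 0.616). Btg4, the adaptor that brings the deadenylase to maternal mRNA, changed by -2.85 ± 0.39 (adjusted p = 2.18e-05), but by -0.89 with the covariate (adjusted p = 0.468) and by -0.41 after a further quantile normalization (adjusted p = 0.621), neither of them called. Pabpn1l, its partner on the poly(A) tail, changed by -7.71 ± 0.53. The uridylyltransferase Tut7 rose by 3.88 ± 0.51, with 2.04 at its second probe set. Of 23 maternal effect and reprogramming factors 15 fell and 3 rose (median -1.72), or 5 and 2 with the covariate. The oocyte transcription factor Nobox and the RNA-binding Zar1 changed by -4.51 ± 0.31 and -4.41 ± 0.34, and Uhrf1 and Dnmt1, which maintain DNA methylation, by -4.08 ± 0.41 and -2.56 ± 0.41. Trim28, a corepressor needed to keep imprints, had 1.20, 1.00 and 1.09 in 2-cell embryos, against -3.49, -4.58 and -4.09 in 1-cell embryos. The 3 oocytes were at 1.01, 1.18 and 1.08, so among these oocytes and embryos only the 1-cell embryos were low. The difference was 5.15 ± 0.20 (limma adjusted p = 1.53e-11). Dppa3 differed by 0.29 ± 0.17 (adjusted p = 0.234).

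Of 29 genes of metaphase arrest, meiosis and the spindle checkpoint, 15 (51.7%) fell and 7 (24.1%) rose, against 18.7% and 17.2% of all genes. Their median was -0.72, and with the hybridisation controls as a covariate 8 fell and 3 rose. Mos, the kinase that holds the egg in metaphase II, had -0.02, 0.06 and -0.02 in 2-cell embryos and 3.57, 2.89 and 2.67 in 1-cell embryos, a difference of -3.04 ± 0.16 (adjusted p = 4.93e-10). The oocytes stood at 11.91, 12 and 11.53, so most of its decline lay before the 1-cell collection. The meiotic cyclin Ccnb3 changed by -5.99 ± 0.46, and the phosphatase Cdc25c, which activates Cdk1, had 2.55, 2.82 and 2.86 in 2-cell embryos, against -2.99, -3.52 and -3.07 in 1-cell embryos, a rise of 5.94 ± 0.25. Cdk1 itself rose by 2.47 ± 0.31.

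Of the 12 largest falls, only Pabpn1l belongs to one of these lists. Olfr976, an olfactory receptor gene, had 5.19, 2.26 and -0.07 in 2-cell embryos and 10.62, 10.65 and 10.57 in 1-cell embryos. The 2-cell embryos were spread over 5 units and the 1-cell embryos were nearly alike, and the difference was -8.15 ± 0.84 (adjusted p = 9.17e-07). Plce1, a phospholipase C, had 2.68, 2.38 and 1.62 in 2-cell embryos, against 10.25, 10.39 and 9.91 in 1-cell embryos (-7.96 ± 0.35, adjusted p = 7.15e-11). Gpr1, a receptor of the chemokine-like protein chemerin, had 4.32, 5.04 and -0.15 in 2-cell embryos and 10.84, 10.79 and 10.92 in 1-cell embryos. Its 2-cell embryo 3 lay more than 4 units below the others, and its call (-7.78 ± 0.87, adjusted p = 2.2e-06) was lost with the hybridisation controls as a covariate (-5.22, adjusted p = 0.0575), as was that of the surface glycoprotein Cd200 (-6.95 ± 0.88, adjusted p = 8.61e-06, and -4.81 with the covariate, adjusted p = 0.0989). Slc7a11, the cystine transporter, had the tightest 2-cell values of the 12 apart from Cd200, 0.12, 0.16 and 0.19, against 7.19, 7.58 and 6.59 in 1-cell embryos (-6.97 ± 0.24, limma adjusted p = 3.73e-12), with -2.22 at its second probe set. Its 4-cell embryos stood at 0.01, -0.00 and 0.00, and whether such tight values lay at background was not tested. Tshz1, Tex26, Ahr, Cdo1 and Cited2 lay between -7.75 and -6.95. The second probe set gave -4.56 for Tshz1 and -0.00 for the dioxin receptor Ahr.

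Many of the falling genes had their highest values at the 1-cell stage and not in the oocyte. Of the 3411 falls, 1001 (29.3%) had a 1-cell mean at least 4-fold above the MII mean, which held for 9.25% of all genes, and 265 had a 1-cell mean at least 4-fold below it. The 1-cell embryos enter both this difference and the call, so these shares are a description. Elp3, the catalytic subunit of Elongator, had -6.22, -4.59 and -5.05 in 2-cell embryos and 1.51, 1.86 and 1.77 in 1-cell embryos, while oocytes stood at -5.61, -5.96 and -5.89 and 4-cell embryos at -1.51, -1.20 and -1.37. Of these 4 groups only the 1-cell embryos were above the baseline, and the difference was -7.00 ± 0.38 (limma adjusted p = 7.18e-10). Clone 1-cell embryos stood at 0.00, 0.50, 0.20, 0.40 and 0.14. Ccnb3, Dcp1a and Dcp2 also had their highest values of these 4 stages at the 1-cell stage. Kpnb1, the importin beta subunit, stood at 0.04, -0.00 and -0.01 in 2-cell embryos, against 5.09, 5.48 and 5.56 in 1-cell embryos, with 0.00, 0.10 and 0.01 in oocytes (-5.37 ± 0.09, adjusted p = 1.31e-15), but its second probe set differed by 0.70 in the other direction. Fgf8, a growth factor, had 3.77, 2.65 and 1.44 in 2-cell embryos, against 7, 6.70 and 7.05 in 1-cell embryos and 0.93, 0.01 and 0.40 in oocytes (-4.30 ± 0.38, adjusted p = 1.87e-07).

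Cell cycle, transport and lineage lists were divided. Of 53 genes of DNA replication and G1-S 17 (32.1%) rose and 11 (20.8%) fell, with a median of 0.06. Over all genes 17.2% rose and 18.7% fell, so the share of falls in this list was near that of all genes. Cyclin E1 (Ccne1) had 3.67, 3.4 and 4.00 in 2-cell embryos, against -4.43, -5.08 and -4.48 in 1-cell embryos, a rise of 8.36 ± 0.26 (adjusted p = 1.47e-12), whereas the single-strand binding protein Rpa1 and the helicase subunit Mcm4 changed by -3.78 ± 0.19 and -2.10 ± 0.13. Of 43 nuclear transport genes 19 rose and 15 fell, with a median of 0.02. Importin Kpna1 rose by 8.40 ± 0.31 and the transportin Tnpo3 by 7.86 ± 0.28, and Kpna7, the importin alpha of the egg, changed by -5.67 ± 0.52. Of 22 glycolysis and pyruvate genes 7 rose and 6 fell, with a median of 0.08. The glucose transporter Slc2a3 rose by 5.83 ± 0.34 while Slc2a1 changed by -3.71 ± 0.54. Of 48 histone acetylation and methylation enzymes 19 rose and 12 fell, with a median of 0.39 (0.09 with the second probe sets), and the deacetylase Hdac1 had -0.21, 0.20 and 0.11 in 2-cell embryos, against -5.71, -6.08 and -6.21 in 1-cell embryos (6.03 ± 0.22, adjusted p = 7.21e-12). Of 26 pluripotency and lineage factors 8 (30.8%) rose and 4 (15.4%) fell, with a median of -0.03. Zfp42 (Rex1) rose by 4.41 ± 0.40 and Fgf4 by 7.49 ± 1.13. Pou5f1 changed by -1.35 ± 0.31 (adjusted p = 0.00209), with -1.31 and no call with the covariate (adjusted p = 0.259), and Nanog differed by -0.00 ± 0.54 (adjusted p = 1). With the hybridisation controls as a covariate the numbers up and down were 9 and 9 for replication, 12 and 5 for transport, 4 and 3 for glycolysis, 12 and 5 for histone enzymes and 4 and 1 for pluripotency.

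Markers of the other cells that could be carried along were near their baselines. Of 13 cumulus and granulosa cell markers 1 rose and 1 fell, with a median of -0.02, and 11 of 13 differences lay within 0.31 of 0. The exceptions were Amhr2, the receptor of anti-Müllerian hormone, which stood at 1.79, 1.18 and 2.00 in 2-cell embryos and -7.96, -7.98 and -6.58 in 1-cell embryos (9.16 ± 0.40, adjusted p = 6.14e-11), and Cyp11a1, a steroid synthesis enzyme, at -2.03 ± 0.46 with 0.02 at its second probe set and -1.95 with no call with the covariate (adjusted p = 0.265). Of 14 sperm markers 2 (14.3%) rose and 1 (7.14%) fell, by less than 1 unit each, against 17.2% and 18.7% of all genes. Protamine Prm2 had -0.00, 0.00 and 0.08 in 2-cell embryos, against 0.83, 0.00 and 1.45 in 1-cell embryos (-0.74 ± 0.23, adjusted p = 0.0189). Its call was lost without 1-cell embryo 1 (0.0557) or 3 (0.0901) or 2-cell embryo 2 (0.05), and with the covariate none of the 14 was called. Centred values do not show which of these markers were absent.

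Cloned embryos pass the same stages with a somatic nucleus, and share no array with the IVF embryos. Between their 2-cell and 1-cell stages 3036 genes (16.7%) were higher and 4469 (24.6%) lower, 41.3% either way (limma fit of the 30 clone arrays). Of the 3121 genes that rose in IVF embryos, 2309 (74%) were also called higher in clones and 109 (3.49%) lower, and their median difference was 2.89 in IVF embryos and 2.39 in clones. Of the 3411 falls, 2836 (83.1%) were called lower in clones and 30 (0.88%) higher, with medians of -2.49 in IVF embryos and -2.40 in clones. The IVF medians are those of genes chosen for passing the test there. Selenos, Pdxk, Zfp622 and Timd2 rose in clones by 11.21, 12.12, 11.90 and 10.33. For Obox6 the difference of the transitions was -0.01 ± 0.53. The hybridisation controls differed between the stages of clones too, and their part in these shared changes was not tested.

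**Figure D4:**
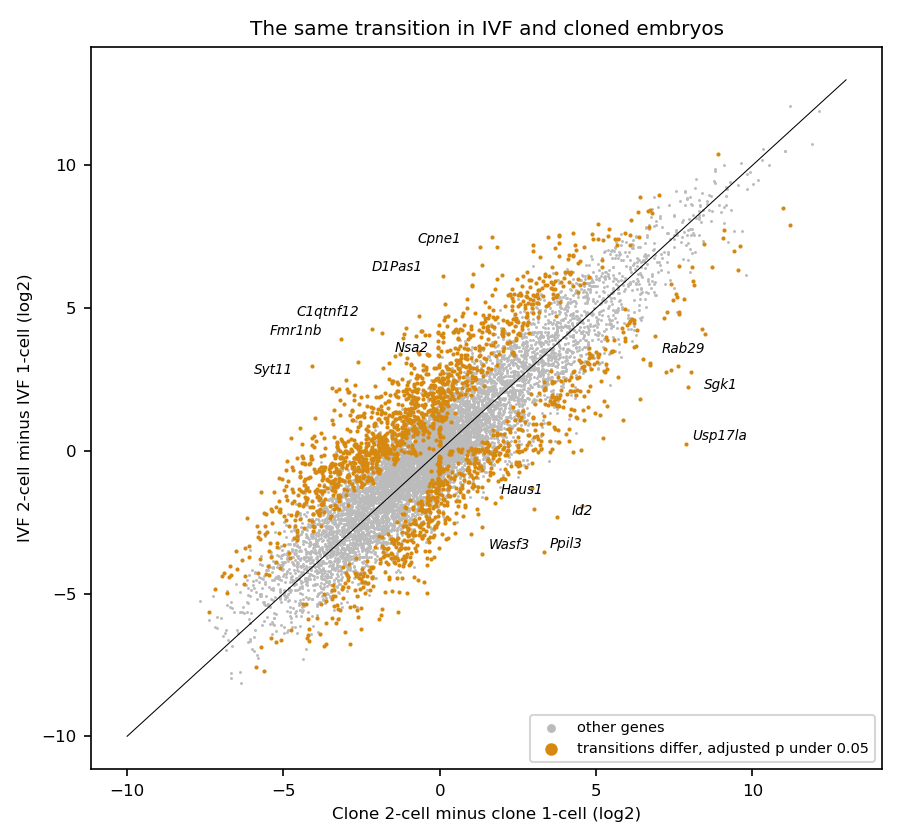
The 2-cell minus 1-cell difference (log2) of each gene in IVF embryos (vertical) and clones (horizontal), with the line of equality. Orange points are the genes whose transitions differed at an adjusted p below 0.05 in the fit of all 51 arrays, 1317 above the line and 721 below, and the genes named in the text are labelled.

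The transitions themselves differed for 2038 genes (11.2%) when the difference was tested in 1 fit of all 51 arrays, with 1317 (7.24%) higher and 721 (3.96%) lower in the IVF transition. These counts depend on the processing, with 279 and 241 after a further quantile normalization and 472 and 387 with the hybridisation controls as a covariate. Of the genes that rose in IVF embryos 846 (27.1%) differed from clones, 694 with the larger rise in IVF embryos, and of those that fell 572 (16.8%) differed, 392 with the larger fall in IVF embryos. The IVF arrays that called these genes also enter the difference from clones. That choice by itself favours the larger change in IVF embryos, so these counts are descriptions. D1Pas1, a helicase gene related to Ddx3, had 5.38, 5.85 and 6.79 in IVF 2-cell embryos and -0.18, -0.16 and -0.06 in IVF 1-cell embryos. In clones the difference was 0.09 ± 0.18, so that the transitions differed by 6.05 ± 0.46 (adjusted p = 1.58e-12), with 0.98 at the second probe set. Fmr1nb, an X-linked gene, rose by 3.93 ± 0.52 in IVF embryos and fell in clones (-3.17 ± 0.73), a difference of 7.09 ± 1.04 (adjusted p = 5.03e-06). Syt11, a synaptotagmin, and C1qtnf12, a secreted C1q-like factor, likewise moved in opposite directions, with differences of the transitions of 7.06 ± 0.59 and 6.46 ± 0.99. The rises of Fmr1nb, Syt11 and C1qtnf12 in IVF embryos were not called with the covariate (3.32, 1.99 and 3.47), while their differences from clones were. The second probe set of Syt11 gave 0.42 in IVF embryos. Cpne1, a copine, rose by 7.15 ± 0.49 in IVF embryos and by 1.28 ± 0.34 in clones. Its mean was 2.05 in MII oocytes, -5.75 in IVF 1-cell and 1.41 in IVF 2-cell embryos. The clones stood at 0.28 to 0.90 at the 1-cell and at 1.49 to 2.21 at the 2-cell stage. For Cpne1, IVF embryos and clones thus lay far apart at the 1-cell but not at the 2-cell stage. Trim28 rose by 5.15 ± 0.20 in IVF embryos and differed by 0.18 ± 0.18 in clones, a difference of 4.97 ± 0.28 (adjusted p = 1.79e-16).

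Below the clone transition stood Ppil3, a cyclophilin of the spliceosome, which fell by 3.56 on the log2 scale in IVF embryos and rose by 3.33 ± 0.53 in clones (difference -6.89 ± 0.94, adjusted p = 1.28e-06), with -0.04 at the second probe set. In IVF embryos it was not called with the covariate, where the difference was larger and its error too (-5.25 ± 1.69, adjusted p = 0.0506), nor with only the groups compared in the fit (-3.56 ± 1.22, adjusted p = 0.111). Sgk1, a kinase induced by serum and glucocorticoids, rose by 2.76 ± 0.61 in IVF embryos and by 8.04 ± 0.32 in clones. The difference of the transitions was -5.27 ± 0.63 (adjusted p = 1.13e-07), and the IVF rise was 0.18 after a further quantile normalization and 1.83 with the covariate (adjusted p = 0.486), both not called. Usp17la rose by 7.87 ± 1.05 in clones, and the transitions differed by -7.64 ± 1.66 (adjusted p = 0.00119). Id2, an inhibitor of basic helix-loop-helix factors, changed by -2.31 ± 0.73 in IVF embryos and by 3.74 ± 0.80 in clones. Its IVF change was not called without 1-cell embryo 3 (-1.72) or without 2-cell embryo 1 (-2.05) or 2 (-1.92). The call was also lost with only the groups compared or all 51 arrays in the fit (limma adjusted p = 0.127 and 0.0514). It was lost as well after a further quantile normalization (-1.46), with the covariate (-2.13), with the mean of all probe sets (-0.78) and at the second probe set (-0.01). Its difference from clones was not called with the covariate (-4.66, adjusted p = 0.132), after a further quantile normalization (-4.25, adjusted p = 0.082) or at the second probe set (-0.20).

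Features of the genes that the calls did not use were compared as descriptions. Promoter windows were at hand for 14368 of the 18193 genes, 82.1% of the rises and 81.4% of the falls. The median observed over expected CpG ratio was 0.82 for genes that rose, 0.74 for genes that fell, 0.56 for genes not called and 0.67 for all. A ratio above 0.6 was found in 80.8% of the promoters of rises, 67.6% of falls and 57% of all genes. An Ets motif (CCGGAAGT) was present in 11.8% of the promoters of rises, 6.74% of falls and 6.17% of all genes, and an E-box (CACGTG) in 13%, 8.83% and 9.04% in the same order. The TATA box (TATAAA) was less frequent in rises (6.4%) and falls (7.42%) than in all promoters (9.86%), and the homeobox motif GGATTA was present in 6.33%, 5.12% and 6.04%. The CCAAT box was present in 38.9%, 39.3% and 38.2%, the GC box in 64.8%, 61.5% and 54.1% and the heat shock element in 5.86%, 5.91% and 6.31%. The cAMP response element (TGACGTCA) was present in 3.87%, 2.92% and 2.69%, and TCAAGGTCA, the motif of Nr5a2, in 0.351%, 0.288% and 0.355%. Motif shares were not compared within classes of CpG content. All motifs were searched on both strands, and a match is a description of the letters only. The median gene span was 18.2 kb for rises, 32.8 kb for falls and 20.3 kb for all genes, and it was 38 kb for falls of at least 16-fold. By chromosome, the share of genes that rose ran from 11.7% on chromosome 6 to 21% on chromosome 17, and the share that fell from 14.5% on chromosome 11 to 22.8% on chromosome 12. On the X chromosome 15.2% of 617 genes rose and 17.5% fell.

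**Figure D5:**
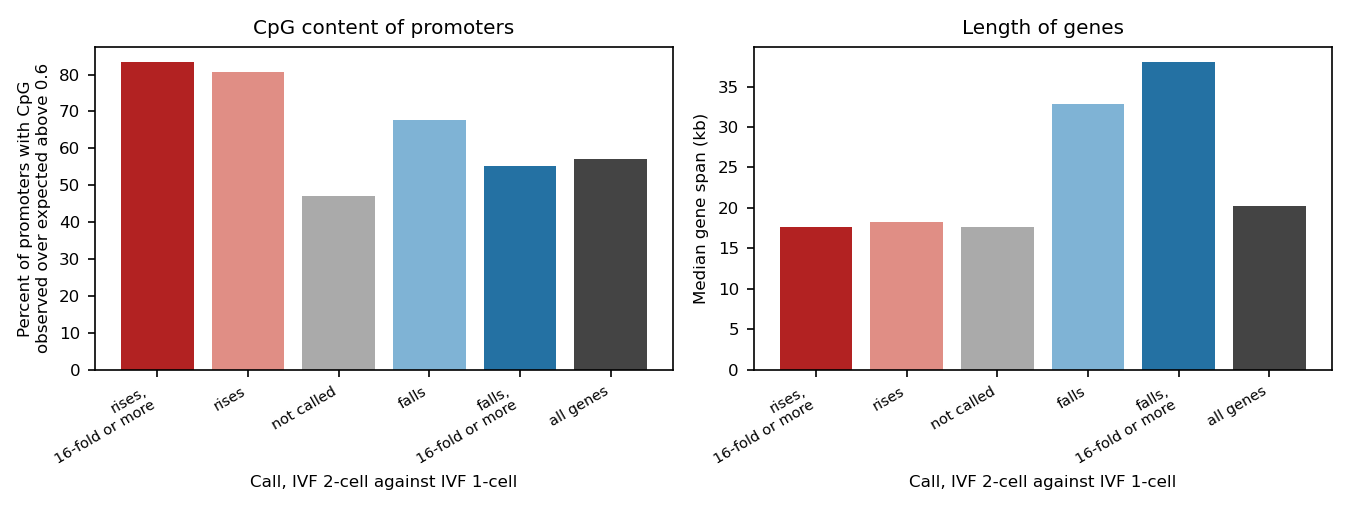
Left, percent of RefSeq promoter windows (250 bases before to 50 after the start) with a CpG observed over expected ratio above 0.6; right, median gene span in kb, by the call between IVF 2-cell and IVF 1-cell embryos. The share of CpG-rich promoters is 80.8% for all rises and 67.6% for all falls, and the span is 18.2 kb and 32.8 kb.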

How the data were processed

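The deposited table holds log2 values that the authors made with RMA, per the submitters' processing notes, from Affymetrix arrays. Per the labels, RNA of single oocytes and embryos was amplified over 2 cycles of target synthesis. The log base was inferred from the values, since 1 probe set spanned 13.8 units, more than the 11.1 that a 16-bit scanner spans in natural logarithms. Exactly 1 array was at 0 in 94.3% of the 45101 probe sets, so they had been centred, a step not given in the sources used here. Control probe sets (64), those with several symbols (932) and those with none (9160) were left out. The 34945 others gave 18193 genes, each read from its most variable probe set across the 51 arrays (by SD), a rule that also uses the arrays compared. Symbols and positions are from the platform annotation and RefSeq GRCm38.p6 (18032 genes joined).

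Differences were tested with limma 3.58.1 in R 4.3.3 (lmFit and eBayes), with Benjamini-Hochberg adjustment over all genes at 0.05, in 21 oocyte and IVF arrays, in the 30 clone arrays, and for the difference of transitions in 51 arrays; the script was tested on simulated data. Values are estimate ± SE. Named genes are the 12 largest rises and falls among called genes whose values do not overlap, without clone or locus numbers, the 6 largest differences from clones each way among genes called in both tests, up to 4 members of each list by smallest adjusted p, and genes followed by name; other members are named by role, after their values were seen. The members and lists were chosen with earlier results of these data known. Correlations of deviations between embryos of the same number were -0.0225, 0.0105 and -0.0406, so numbers were not treated as pairs. Alternatives changed the arrays in the fit, the scaling, the probe set, the filter and the covariates, and left out single embryos. Array signal over background was not given, so detection was not judged.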

Additional observations from a re-analysis of the deposited data

Results flagged for a closer look

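For 45 of the 128 named genes, the 2-cell minus 1-cell difference of IVF embryos differed from that of clones at an adjusted p below 0.05 in the limma fit of all 51 arrays. Given as the IVF minus the clone transition on the log2 scale, the positive differences were Fmr1nb 7.09, Syt11 7.06, C1qtnf12 6.46, D1Pas1 6.05, Nsa2 5.97, Cpne1 5.87 and Trim28 4.97, followed by Hnrnpm 2.98, Rpl8 2.61, Psmd13 2.47, Bop1 2.36, Zar1 2.32, Mpc1 2.31, Cct7 2.29, Psmb5 2.22, Gdf9 2.21, Polr2h 2.19, Nop2 2.16 and Uqcrc1 2.02, and at 2 or below by Ccne1 2.00, Atp5b 1.83, Tcstv1 1.76, Zp3 1.56, Prps1 1.51, Fgf8 1.27, Nob1 1.26, Rps19 1.11 and Tssk6 0.80.

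The negative differences were Usp17la -7.64, Ppil3 -6.89, Id2 -6.05, Sgk1 -5.27, Haus1 -5.04, Wasf3 -4.96 and Rab29 -4.64, followed by Prim1 -2.66, Cdc25c -2.16, Pabpn1l -2.10 and Dcp2 -2.07, and above -2 by Eif2b5 -1.74, Snrpc -1.70, Tex26 -1.68, Kpnb1 -1.57, Dppa4 -1.55 and Dcp1a -1.17. For Prim1, the primase subunit, Cdc25c and Dppa4 this means a smaller rise in IVF embryos than in clones. Leaving out single embryos in turn kept the call of 34 of the 45. The other 11 lost it without at least 1 embryo: Pabpn1l, Tex26, Tcstv1, Gdf9, Zp3, Fgf8, Zar1, Dcp1a, Dcp2, Nob1 and Ccne1. The difference moved by over 1.5 times for Fgf8 (0.69 to 1.86), Psmb5 (1.48 to 2.79) and Tssk6 (0.41 to 1.15).

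In 24 of the 256 clone groups of the 128 named genes, 1 embryo stood apart from the other 4 by its gap relative to the group's range. For independent, normally distributed values this happens in about 1 group in 20. The genes share the same clone embryos, so the 24 groups were not tested against that rate. Clone 2-cell embryo 3 was the highest of its group for the oocyte genes Mos (5.47, against -0.02 to 0.02) and Zar1 (3.62, against -0.29 to 0.13). It was also the highest for Ooep (3.11, against -1.61 to 0.47), which the measure did not single out, and it was the lowest for Zfp622 (1.32). Without it the transitions differed by 3.05 for Zar1 (adjusted p = 7.59e-06). The others at the 2-cell stage of clones were Ifi35 at 2.81 in embryo 5, Slc7a11 at 0.35 in embryo 1, Tcstv1 at 2.18 in embryo 1, Oosp3 at 4.47 in embryo 1, Atp5o at -2.68 in embryo 2, Cd44 at 0.33 in embryo 1 and Tssk6 at 0.11 in embryo 5. At the 1-cell stage of clones they were Pdxk at -10.62 in embryo 4, Crxos at -11.37 in embryo 1, Exoc3l2 at -0.33 in embryo 3, Tshz1 at 6.14 in embryo 5, Ooep at 5.73 in embryo 3, Obox6 at -6.81 in embryo 1, Polr1c at -4.53 in embryo 4, Polr3e at -1.49 in embryo 5, Uqcrc1 at -6.41 in embryo 5, Slc2a3 at -7.96 in embryo 4, Zfp42 at -5.65 in embryo 3, Amhr2 at -7.99 in embryo 4, Akap4 at 0.85 in embryo 5 and Tnp1 at 0.36 in embryo 1.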

How the results depend on the processing

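Leaving out single embryos gave 2869 to 3101 genes higher and 3023 to 3411 lower in 2-cell than in 1-cell IVF embryos, 3505 to 3747 and 4000 to 4290 in 4-cell embryos against MII oocytes, and 1111 to 1368 and 581 to 770 for the difference of transitions. With a replicate block the counts were 3083 and 3373, 3697 and 4241, and 1338 and 719; replicate numbers did not pair the embryos, and the block changed none of the 128 named calls. The hybridisation controls as a covariate lowered the counts to 1522 higher and 1273 lower, and to 472 and 387 for the difference of transitions. A further quantile normalization gave 2238 lower genes, and 279 and 241 for the difference of transitions, which had 378 lower genes when only the groups compared entered the fit. The probe set with the second largest SD reversed Ctsc (-0.01), Exoc3l2 (-0.00), Polr3e (-0.33), Snrpc (-0.06), Rpsa (-0.04), Psma3 (-0.12), Atp5g1 (-0.02), Kpnb1 (0.70), Gata4 (-0.01), Cyp11a1 (0.02), Akap4 (-0.03) and, for the difference of transitions, Nsa2 (-0.26). List medians reversed after a further quantile normalization for the proteasome (-0.26) and the respiratory chain (-0.27), and without the lowest 30% of genes by SD or with the covariate for cumulus (0.06 and 0.04) and sperm markers (0.25 and 0.01). The causes were not tested. Over all named genes and alternatives, 1843 differences kept their side of the threshold, 71 lost and 7 gained the call, and 11 reversed. A change of direction was counted as reversed only where the main or the alternative setting was called, so some of the 1843 changed direction uncalled. Of 1919 rises with a second probe set, 876 were called the same way there and 81 the opposite way, and of 2050 falls 962 and 60. The number of embryos a stage and the lack of detection calls limit the precision of low signals.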

Other observations

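Several gene families were looked at after their values had been seen, and are given as counts beside the 17.2% of all genes higher and 18.7% lower in 2-cell than in 1-cell IVF embryos (limma, adjusted p below 0.05). Of 15 subunits of Integrator, which processes small nuclear RNAs, 11 rose, Ints11, its endonuclease, by 5.18 ± 0.36, and 2 fell, Ints12 by 6.38 and Ints6 by 2.68 on the log2 scale, neither of them called at its second probe set (-0.80 and 0.40). Of 8 genes of the translocase of the outer mitochondrial membrane 6 rose and none fell, with Tomm20 at 7.18 ± 0.43. Among 8 protein arginine methyltransferases 5 rose and none fell, led by Prmt6 at 7.73 ± 0.37, with 3.55 at its second probe set. After a further quantile normalization 3 of each rose and none fell. Of 14 host genes of small nucleolar RNAs 9 rose and none fell, led by Snhg1 at 5.55 ± 0.32, with 3 rising after a further quantile normalization and 1 with the covariate.

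On the other side, 11 of 18 Fbxw genes, F-box proteins of ubiquitin ligases, fell and 2 rose. Fbxw22 changed by -4.54 ± 0.28 and Fbxw13 by -4.54 ± 0.36, while Fbxw2 rose by 4.09 ± 0.30. Neighbouring members of this family are close in sequence and may share probe signal. Of 9 beta tubulin genes 6 fell and 1, Tubb5, rose by 1.35 ± 0.48 (0.05 at its second probe set, not called), with Tubb2b at -5.08 ± 0.72. Of 14 syntaxins, which guide membrane fusion, 8 fell and 1 rose, with Stx8 at -5.19 ± 0.46 and Stx1a at 4.46 ± 0.80, and with -1.55 and 0.55 at their second probe sets, the second of which was not called. Of 10 subunits of the Ccr4-Not deadenylase 8 fell and 2 rose, with Cnot4 at -5.34 ± 0.57 (-3.48 at its second probe set) and Cnot8 at 1.95 ± 0.25. With the covariate 1 beta tubulin, 6 Fbxw genes, 5 syntaxins and 4 Ccr4-Not subunits fell. The medians of these 4 families stayed below 0 under the further quantile normalization and with the covariate.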
